A study of Mus musculus with 6 samples.

Results

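The SR splicing factors are a family of RNA-binding proteins, and their transcripts were measured in lung group 2 innate lymphoid cells (ILC2s) cultured with melatonin or its vehicle. The 10 genes described are *Srsf1* to *Srsf7* and *Srsf9* to *Srsf11*, taken by name from the 16381 genes of the deposited table, and all 10 passed the filter on low values. The cells were activated ILC2s (aILC2s) sorted from the lungs of wild-type BALB/c mice, stated in the methods to be female and 6 to 8 weeks old, after IL-33 at 0.5 µg per day for 3 days. They were then kept for 24 h with 250 µM melatonin (3 samples) or with DMSO, the solvent used as vehicle (3 samples), so that every sample had seen IL-33 and no sample was left unchallenged or without culture. Nothing in the labels ties the samples to separate animals, so the p-values measure only the spread between these samples, which may be technical in part.

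SR proteins carry RNA recognition motifs at the start of the protein and a tail rich in alternating arginine and serine, the RS domain. They bind exonic enhancer sequences in pre-mRNA, recruit the U1 snRNP and U2AF to nearby splice sites and so favour the inclusion of exons. Kinases of the SRPK and CLK families phosphorylate the tail, which sets where the protein sits in the nucleus and when it acts. Several members limit their own level by splicing a poison exon into their mRNA, which sends it to nonsense-mediated decay, and some accompany the spliced mRNA to the cytoplasm. In lymphocytes the family is known for its part in the alternative splicing that goes with activation.

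The repeat that names the family can be read in the coding sequence. In the canonical transcripts of GENCODE M39, adjacent arginine and serine codons (in either order) came to between 4.05 per 100 codons in *Srsf9* and 23.5 per 100 in *Srsf2*, against a median of 0.776 over the 12937 listed genes with a coding sequence. Only 0.587% of those genes were at or above *Srsf9*. For the 4 members that passed the test of treatment, the 90 coding bases with the most such pairs are given here, read from the GRCm39 transcripts, 5′ to 3′ on the coding strand, with the codons that take part in a pair in capitals.
Srsf1: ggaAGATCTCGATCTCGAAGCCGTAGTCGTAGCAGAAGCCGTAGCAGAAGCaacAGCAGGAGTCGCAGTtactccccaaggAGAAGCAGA
Srsf3: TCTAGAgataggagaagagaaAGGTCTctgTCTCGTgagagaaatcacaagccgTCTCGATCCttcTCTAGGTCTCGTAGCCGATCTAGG
Srsf5: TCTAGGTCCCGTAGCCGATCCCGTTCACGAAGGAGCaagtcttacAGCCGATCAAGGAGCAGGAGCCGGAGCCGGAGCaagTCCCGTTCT
Srsf11: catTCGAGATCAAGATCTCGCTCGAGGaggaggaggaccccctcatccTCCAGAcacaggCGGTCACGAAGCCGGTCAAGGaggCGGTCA
The stretch of *Srsf1* covers codons 203 to 232 of 248 and lies at chr11:87940292-87940381 on the plus strand. The stretch of *Srsf5* covers codons 197 to 226 of 269 at chr12:80996531-80996620 on the plus strand. The other two are joined across an intron: codons 130 to 159 of 164 in *Srsf3*, within chr17:29260188-29260367 on the plus strand, and codons 276 to 305 of 511 in *Srsf11*, within chr3:157722060-157723505 on the minus strand. The stretches hold 21 pairs in *Srsf1*, 22 in *Srsf5*, 15 in *Srsf11* and 12 in *Srsf3*.

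The values are normalised counts, meaning estimated counts per gene divided by a size factor for the library. Estimated totals were between 17056266 and 20511709 counts per library, so that the least abundant SR gene still had over 1000 normalised counts in each library. Over the whole table, replicates of a group differed by more than counting noise, but for a few SR genes within a group (*Srsf6* in vehicle, *Srsf4* with melatonin) the spread was about as small as counting error. *Ptprc*, the leukocyte antigen CD45, and *Gata3*, the lineage factor of ILC2s, were high in all 6 libraries and not called, with *Gata3* at 19365 ± 321 in vehicle and 20469 ± 3605 with melatonin (SD, n = 3). Of the 13 ILC2 markers tested, 2 were called higher and 8 lower. The summed level of 6 listed NK and ILC1 markers was between 6020 and 7285 in vehicle and between 85.0 and 214 with melatonin, mostly *Gzma*, and the sum of 8 macrophage markers was between 1371 and 1597 in vehicle and between 364 and 839 with melatonin. The sum of 5 listed T cell markers was between 1291 and 1405 in vehicle and between 499 and 896 with melatonin. The sum of 4 mast cell and basophil markers, nearly all *Kit*, was between 1688 and 1771 in vehicle and between 2197 and 5937 with melatonin, with replicate 1 the highest. The sum of 8 airway epithelial markers was between 964 and 2412 in vehicle and between 1061 and 1261 with melatonin. This sum was mostly *Epcam*, which was called higher, except in vehicle replicate 3, where *Epcam* had 634 and *Scgb1a1* 1045. Of the 7 epithelial markers tested, 5 were called lower, with a median log2 fold change of −4.15. *Sftpc* lay between 122 and 389 in vehicle and between 3.02 and 6.54 with melatonin, *Scgb1a1* between 21.5 and 1045 in vehicle and at 1.01 or less with melatonin, and *Krt8* was at 0 in all melatonin libraries. Melatonin replicate 1 stood apart over the whole table, with a chi-square per degree of freedom of 26.9 and 34.5 against the other 2 melatonin libraries, which differed from each other by 12.6. The sum of 2 B cell markers was between 289 and 322 in vehicle and between 131 and 162 with melatonin, and *Pecam1*, the only endothelial or fibroblast marker listed, was between 1001 and 1066 in vehicle and between 310 and 416 with melatonin. The sum of 4 granulocyte markers was between 21.0 and 76.5 in vehicle, highest in replicate 1, and between 0 and 4.37 with melatonin. The sort described in the methods took CD45+ cells without lineage markers of T, B, NK and myeloid cells, a gate that would remove those cells and the epithelium. No such marker sum exceeded 0.0397% of a library. The 13 ILC2 markers themselves summed to at most 1.27%, so these percentages are not shares of cells. The part of cells of other types in the SR values was not tested. Although the methods state female mice, 4 libraries (all vehicle libraries and melatonin replicate 1) held Y-linked transcripts. Melatonin replicates 2 and 3 held none. *Xist*, read from the inactive X of female cells, was at 579 and 1091 there and at 13.6 or less in the other libraries. The melatonin samples thus did not all come from the same animals. Sex partly follows treatment in every fold change over all 6 libraries, and the 2 cannot be fully told apart. For that reason the differences of melatonin replicate 1 from vehicle are also given by themselves. All 10 SR genes are on autosomes, and the part of sex in their levels was not tested. The library numbers in the labels run in separate blocks for each group, so that treatment and anything tied to those blocks cannot be told apart. In bulk RNA, fewer cells of a type and less RNA per cell cannot be told apart either.

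With melatonin the balance among the SR transcripts differed from vehicle, while their summed level overlapped between the groups. *Srsf5* rose by 50.1% in normalised counts, while *Srsf1*, *Srsf3* and *Srsf11* fell by 26.5%, 22.7% and 20.1%. The other 6 genes did not pass the test, 2 of them (*Srsf2* and *Srsf9*) with 1 vehicle library far below the other two. With limma and Benjamini-Hochberg adjustment over 14419 genes at an adjusted p of 0.05, 1 SR gene was called higher and 3 lower. Much of the transcriptome differed between the groups: 24.5% of all genes tested were called higher and 24.7% lower, and among the 4464 genes with a mean of at least 1000 normalised counts, where all the SR genes lie, 30.0% were called higher and 30.6% lower. The 3 of 10 called lower match the share among abundant genes, and the 1 of 10 called higher is below it, so the counts alone do not set the SR genes apart. The groups did not overlap for 2 SR genes that were higher with melatonin and 4 that were lower, where 30.0% of all genes tested were higher without overlap and 30.3% lower. The median log2 fold change of the 10 genes was −0.02, beside −0.00 over all genes tested and 0.01 over the abundant ones.

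**Figure D1:**
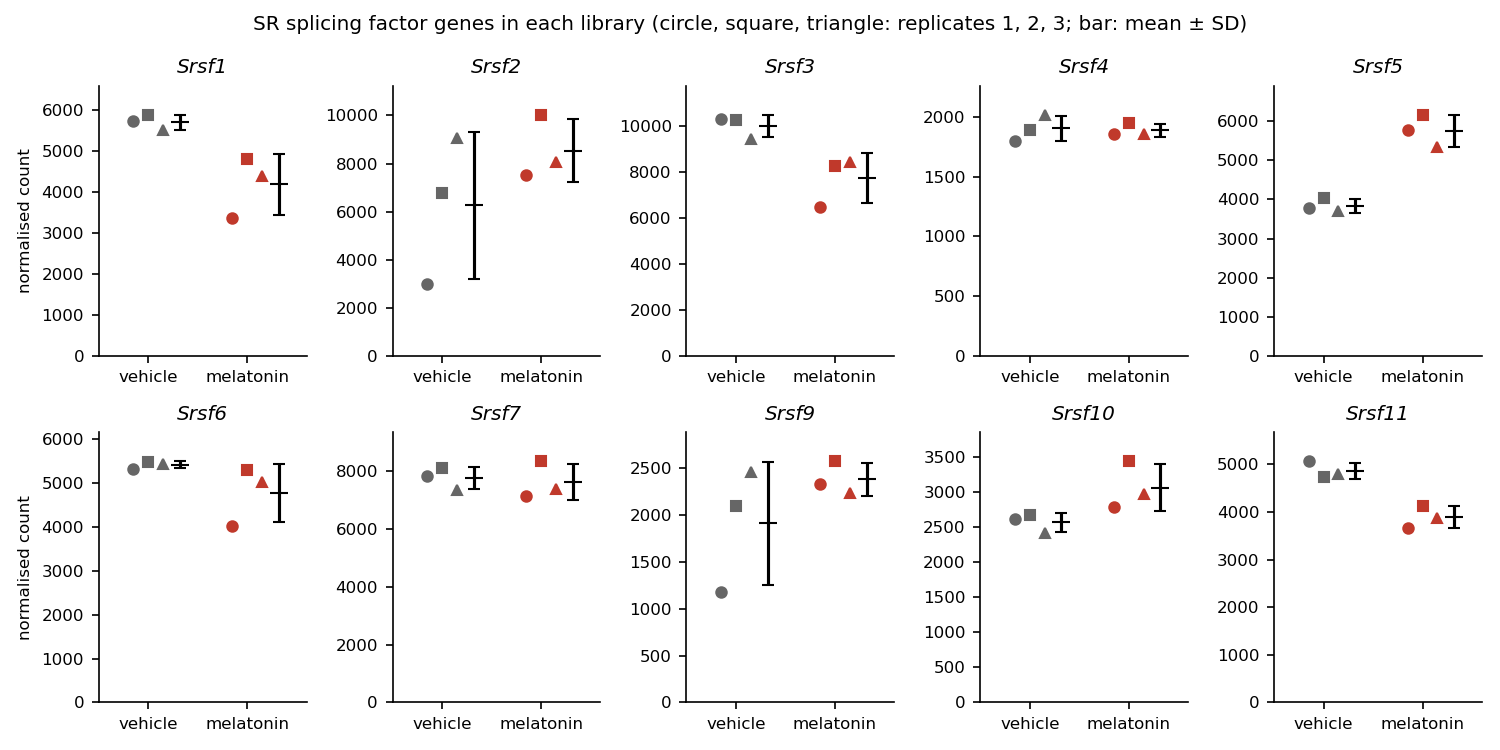
Normalised counts (linear axes from 0) of the 10 SR genes in the 3 vehicle (grey) and 3 melatonin (red) libraries, with the mean and SD beside each group. *Srsf5* and *Srsf10* sit above all vehicle libraries with melatonin, and *Srsf1*, *Srsf3*, *Srsf6* and *Srsf11* below, whereas vehicle replicate 1 (circle) is low in *Srsf2* and *Srsf9*.

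*Srsf5* (SRp40, ENSMUSG00000021134, chromosome 12 from 80986436 to 80997630, plus strand of GRCm39) was the SR gene that rose. SRSF5 has a pair of RNA recognition motifs and belongs with SRSF4 and SRSF6 to a subgroup of close relatives. It had 3778, 4025 and 3694 normalised counts in vehicle replicates 1, 2 and 3. With melatonin it had 5761, 6154 and 5341. Every melatonin library was above every vehicle library, and the gap between the groups was larger than the range within either. The log2 fold change was 0.58 (SE 0.08, 95% interval 0.40 to 0.77, limma adjusted p = 0.000583). Leaving out any single library kept the call and moved the value between 0.53 and 0.64. Correction for GC content kept the call too, at a log2 fold change of 0.45 (adjusted p = 0.00144). Its relatives did not move in the same way. *Srsf4* (SRp75, ENSMUSG00000028911, chromosome 4 from 131600816 to 131630471, plus strand) had 1802, 1892 and 2017 normalised counts in vehicle and 1856, 1953 and 1860 with melatonin. The groups overlapped fully, with a log2 fold change of −0.01 (95% interval −0.19 to 0.17, limma adjusted p = 0.927).

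*Srsf6* (SRp55, ENSMUSG00000016921, chromosome 2 from 162773299 to 162780234, plus strand) had 5323, 5470 and 5438 normalised counts in vehicle. With melatonin it had 4020, 5281 and 5008. All melatonin libraries were below all vehicle libraries, but replicate 1 carried most of the difference. The log2 fold change was −0.19 (SE 0.10, 95% interval −0.43 to 0.04, limma adjusted p = 0.156), and −0.07 without melatonin replicate 1. A correction for GC content or for transcript length brought it past the threshold (log2 fold change −0.32, adjusted p = 0.0238, and −0.30, adjusted p = 0.0472).

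*Srsf1* (SF2/ASF, ENSMUSG00000018379, chromosome 11 from 87938129 to 87944581, plus strand) encodes the founding member of the family, which promotes the use of nearby splice sites and shuttles to the cytoplasm. It had 5727, 5877 and 5521 normalised counts in vehicle. With melatonin it had 3365, 4817 and 4404. The groups did not overlap, and melatonin replicate 1 was again the lowest. The log2 fold change was −0.46 (SE 0.12, 95% interval −0.74 to −0.18, limma adjusted p = 0.0143). Left-out libraries moved it between −0.57 and −0.31, and without vehicle replicate 2 the call was lost (adjusted p = 0.0551). It was also lost under quantile normalization, at −0.35 (adjusted p = 0.0579), and in the fit with no mean-variance trend (0.0551). Melatonin replicate 1 by itself differed from the vehicle mean by −0.76 on the log2 scale, and replicates 2 and 3 by −0.24 and −0.37.

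*Srsf9* (SRp30c, ENSMUSG00000029538, chromosome 5 from 115465189 to 115476335, plus strand), the closest relative of *Srsf1*, had 1178, 2091 and 2457 normalised counts in vehicle and 2328, 2569 and 2234 with melatonin. The groups overlapped, and the spread of the vehicle group came mainly from replicate 1. Its log2 fold change was 0.38 (SE 0.23, 95% interval −0.14 to 0.90, limma adjusted p = 0.196), and 0.07 without vehicle replicate 1.

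*Srsf2* (SC35, ENSMUSG00000034120, chromosome 11 from 116740723 to 116744518, minus strand), a marker of nuclear speckles whose protein largely stays in the nucleus, varied most. It had 2987, 6768 and 9043 normalised counts in vehicle. With melatonin it had 7512, 10020 and 8063. The highest vehicle library was above 2 of the melatonin libraries. The log2 fold change was 0.58 (SE 0.34, 95% interval −0.19 to 1.34, limma adjusted p = 0.184), the same size as that of *Srsf5* with an interval that includes 0. It was 0.11 without vehicle replicate 1, and 0.91 and called without vehicle replicate 3 (adjusted p = 0.0463).

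The low values of *Srsf2* and *Srsf9* came from the same library. Some genes outside the family were also lowest there: *Alyref*, an mRNA export adaptor, had 1536, 3585 and 5187 normalised counts in vehicle replicates 1, 2 and 3, *Hnrnpd* had 936, 1895 and 3044, and *Pcbp1* had 3247, 5148 and 7332, 3 genes chosen after their values were seen. For *Srsf2*, vehicle replicate 1 differed by −1.39 on the log2 scale from the mean of the other 2 vehicle libraries, which 0.291% of the 4464 abundant genes reached. For *Srsf9* the difference was −0.94, reached by 1.10% of them. For the remaining 8 SR genes, the same difference lay between −0.12 and 0.09. *Srsf2* and *Srsf9* have the highest GC content of the family in their longest transcripts, 50.0% and 47.3%, beside 46.7% in *Srsf4* and 39.2% to 43.3% in the others. Across the 4464 abundant genes, the deviation of a library from the others of its group correlated with GC content at Spearman's rho of −0.195, −0.294 and 0.442 in vehicle replicates 1, 2 and 3 and 0.179, −0.242 and −0.0327 in melatonin replicates 1, 2 and 3 (genes share a library and are not independent). In the same order of libraries, *Srsf2* differed from the other 2 of its group by −1.39, 0.38 and 1.01 and by −0.26, 0.36 and −0.11, so that its sign was that of rho in 3 of 6 libraries, the largest 2 deviations among them. The part of GC content in these values was not tested beyond the correction that follows. After correction for GC content the log2 fold changes were 0.61 for *Srsf2* and 0.35 for *Srsf9*, so that neither was called. Within a library, *Srsf2* stayed at 2.54 to 3.68 times *Srsf9* in vehicle and 3.23 to 3.90 times with melatonin. Across the 6 libraries their log2 levels correlated at r = 0.993, and at 0.990 once each group was centred, over points that include this low library.

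*Srsf3* (SRp20, ENSMUSG00000071172, chromosome 17 from 29251321 to 29262347, plus strand) encodes the smallest member, which also links mRNA to the export receptor NXF1. It had 10327, 10268 and 9471 normalised counts in vehicle, against 6490, 8290 and 8470 with melatonin. The groups did not overlap, and the log2 fold change was −0.38 (SE 0.11, 95% interval −0.63 to −0.13, limma adjusted p = 0.0187). The call was lost without vehicle replicate 1 (adjusted p = 0.0640) or vehicle replicate 2 (0.0689), at log2 fold changes of −0.36 in both. It was also lost under quantile normalization, at −0.24 (adjusted p = 0.124), and without the mean-variance trend (0.0622).

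*Srsf3* has a processed pseudogene, Srsf3-ps, on chromosome 11 from 98515177 to 98516487, minus strand, with 1276 of 1293 aligned bases identical (98.7%). Reads from the shared bases can be assigned to either copy. The longest stretch of the *Srsf3* coding sequence found unchanged in the copy runs over 192 bases, from coding position 83 to 274, at chr11:98516101-98516292, and shows why reads cannot separate the copies there.
Srsf3-ps: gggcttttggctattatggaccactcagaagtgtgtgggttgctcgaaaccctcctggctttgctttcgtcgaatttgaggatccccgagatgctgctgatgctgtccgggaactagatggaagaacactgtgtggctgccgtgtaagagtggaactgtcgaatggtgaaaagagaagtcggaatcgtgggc
The pseudogene was given 820, 799 and 817 normalised counts in vehicle and 426, 631 and 665 with melatonin. It moved in the same direction as *Srsf3*, with a log2 fold change of −0.53 (limma adjusted p = 0.0232). It took 7.22% to 7.94% of the summed counts of both genes in vehicle and 6.16% to 7.28% with melatonin. Summing both genes gave a log2 fold change of −0.39 (adjusted p = 0.0182), close to that of *Srsf3* alone.

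*Srsf7* (9G8, ENSMUSG00000024097, chromosome 17 from 80507501 to 80514879, minus strand), the relative of *Srsf3* that carries a zinc knuckle and also serves export, did not follow it. It had 7840, 8114 and 7351 normalised counts in vehicle and 7159, 8342 and 7391 with melatonin. The groups overlapped, with a log2 fold change of −0.03 (95% interval −0.22 to 0.16, limma adjusted p = 0.804).

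*Srsf10* (SRp38, ENSMUSG00000028676, chromosome 4 from 135583043 to 135602548, plus strand) encodes an atypical member that represses splicing when it loses its phosphates. It had 2612, 2678 and 2413 normalised counts in vehicle, against 2789, 3438 and 2967 with melatonin. All melatonin libraries were above all vehicle libraries, but the log2 fold change of 0.25 (SE 0.09, 95% interval 0.04 to 0.47) narrowly missed the threshold (limma adjusted p = 0.0537). It passed in 5 of 22 alternative analyses, among them the one without melatonin replicate 1 (log2 fold change 0.32, adjusted p = 0.0149). It was smaller after correction for GC content (0.12, adjusted p = 0.251) and without melatonin replicate 2 (0.17, adjusted p = 0.165).

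*Srsf11* (p54, ENSMUSG00000055436, chromosome 3 from 157716110 to 157742310, minus strand) encodes a longer and more distant relative that binds U2AF. It had 5064, 4744 and 4791 normalised counts in vehicle. With melatonin it had 3663, 4124 and 3877. The groups did not overlap and the 3 melatonin libraries were close to each other. The log2 fold change was −0.32 (SE 0.08, 95% interval −0.50 to −0.15, limma adjusted p = 0.00762). It lay between −0.37 and −0.28 with each library left out in turn, and the call was kept each time.

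**Figure D2:**
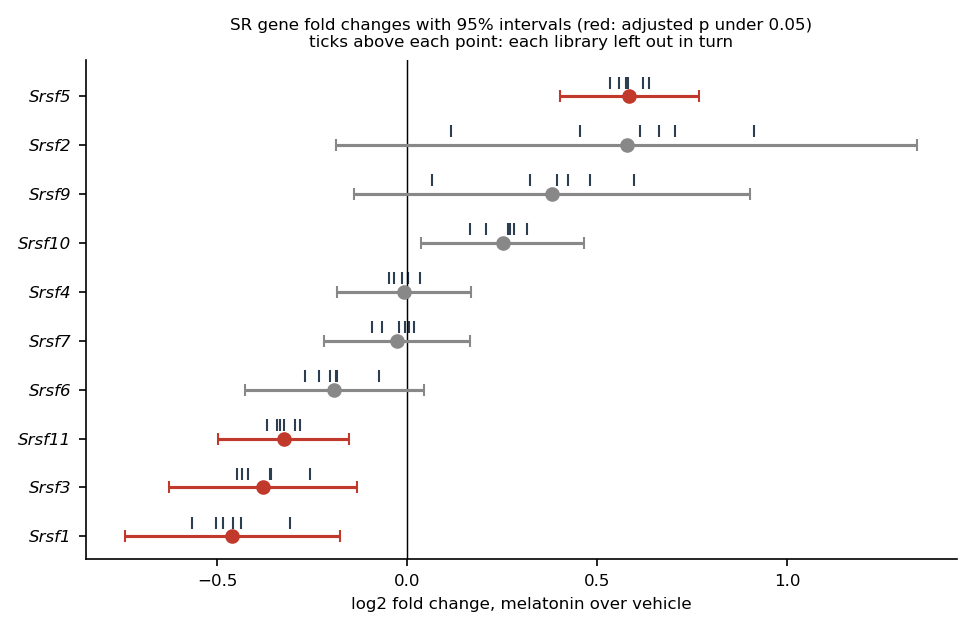
Log2 fold change of each SR gene (melatonin over vehicle, n = 3 each) with its 95% interval, and ticks for the fits that leave out 1 library. *Srsf5* lies apart from 0 on the right and *Srsf1*, *Srsf3* and *Srsf11* on the left (red), while the ticks of *Srsf2* run from 0.11 to 0.91 and those of *Srsf9* from 0.07 to 0.60.

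Melatonin replicate 1, the melatonin library that shares Y-linked transcripts with the vehicle group, differed from the vehicle mean on the log2 scale by 0.59 for *Srsf5*, 0.40 for *Srsf2*, 0.35 for *Srsf9* and 0.12 for *Srsf10*. It differed by −0.03 for *Srsf4*, −0.12 for *Srsf7*, −0.41 for *Srsf11*, −0.43 for *Srsf6*, −0.63 for *Srsf3* and −0.76 for *Srsf1*. The signs are those of the full comparison. A single library has no spread of its own, so these differences carry no test.

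The shift in balance was also read within libraries, since a ratio of 2 genes in 1 library does not depend on how libraries are scaled to each other. *Srsf5* was at 0.660, 0.685 and 0.669 times *Srsf1* in vehicle and at 1.71, 1.28 and 1.21 times *Srsf1* with melatonin, with no overlap. These ratios are of normalised counts and not of levels per length: per kb of longest transcript, *Srsf5* was already slightly above *Srsf1* in each vehicle library. *Srsf5* to *Srsf3* went from 0.366, 0.392 and 0.390 to 0.888, 0.742 and 0.631. *Srsf5* to *Srsf11* went from 0.746, 0.849 and 0.771 to 1.57, 1.49 and 1.38. *Srsf10* to *Srsf1* went from 0.456, 0.456 and 0.437 to 0.829, 0.714 and 0.674. None of these 4 ratios overlapped between the groups. That was fixed in advance, since each joins a gene that was higher without overlap to a gene that was lower without overlap. The 2 genes that fell together kept their ratio more closely: *Srsf3* to *Srsf1* was 1.80, 1.75 and 1.72 in vehicle and 1.93, 1.72 and 1.92 with melatonin, with overlap. These pairs were picked after the fold changes were known, so the ratios are a description.

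**Figure D3:**
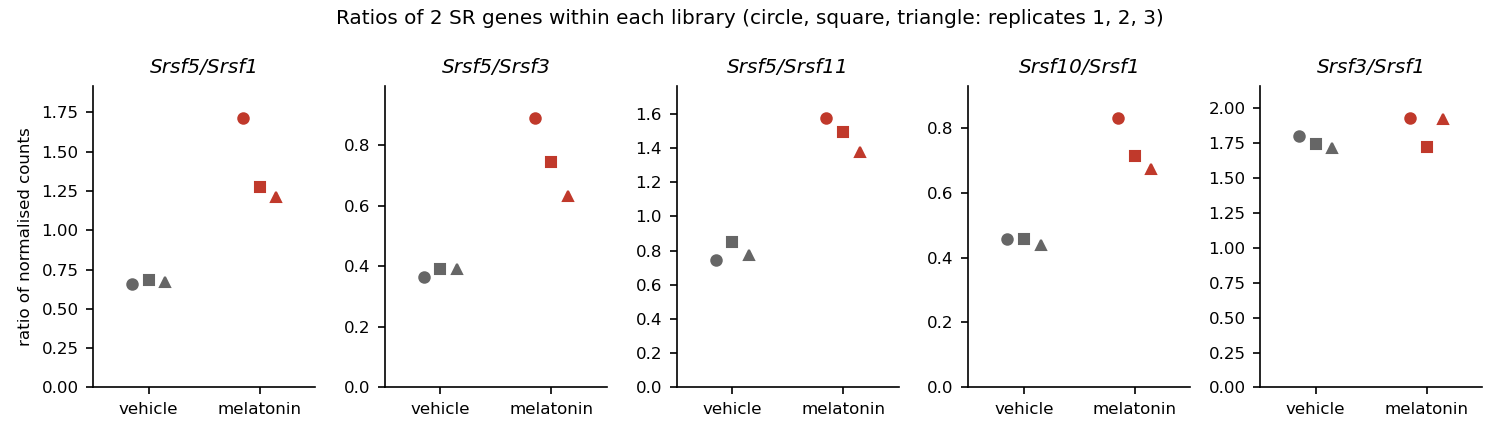
Ratio of the normalised counts of 2 SR genes (linear axes from 0) within each vehicle (grey) and melatonin (red) library. *Srsf5* to *Srsf1* lies between 0.660 and 0.685 in vehicle and between 1.21 and 1.71 with melatonin, whereas *Srsf3* to *Srsf1* overlaps.

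Summed over the 10 genes there was no comparable shift. The sum was 46638, 51927 and 52195 normalised counts in vehicle (50253 ± 3134, SD, n = 3). It was 44945, 54987 and 49616 with melatonin (49849 ± 5025, SD, n = 3). As a share of all normalised counts this was 0.264% ± 0.0166 and 0.269% ± 0.0270, and the groups overlapped.

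Levels of different members were compared per kilobase of the longest annotated transcript. In vehicle the order of these levels was *Srsf3* (2436 ± 116 normalised counts per kb, SD, n = 3), *Srsf7* (1764 ± 87.8), *Srsf2* (1763 ± 861), *Srsf11* (1247 ± 44.3), *Srsf6* (1138 ± 16.2), *Srsf5* (1101 ± 49.5), *Srsf1* (1051 ± 32.9), *Srsf10* (666 ± 35.8), *Srsf4* (419 ± 23.8) and *Srsf9* (222 ± 76.5). The vehicle libraries of *Srsf2* ran from 841 to 2544 per kb and overlapped with every gene from *Srsf3* to *Srsf1* in this order. In vehicle replicate 3 *Srsf2* was already above *Srsf3* (2544 and 2302). *Srsf6* overlapped with *Srsf5*, and *Srsf5* with *Srsf1*. With melatonin *Srsf2* came first (2401 ± 371 per kb), ahead of *Srsf3* (1884 ± 266), *Srsf7* (1733 ± 142) and *Srsf5* (1652 ± 117), which overlapped with each other. *Srsf1* (772 ± 138) then stood below *Srsf6* (1003 ± 140), *Srsf11* (996 ± 59.1) and *Srsf10* (795 ± 86.9). Its libraries overlapped those of *Srsf6* and *Srsf10* but lay below all those of *Srsf11*. As a share of the summed level per kb, *Srsf5* took 9.35% ± 0.681 in vehicle and 13.9% ± 1.27 with melatonin. The share of *Srsf3* was 20.7% ± 2.19 in vehicle and 15.8% ± 1.44 with melatonin. The share of *Srsf1* was 8.93% ± 0.714 in vehicle and 6.44% ± 0.605 with melatonin. The order rests on the length used. The longest transcript of *Srsf9* has 8613 bases and its canonical one 1170. Per kb of the canonical transcript *Srsf9* stood at 1631 ± 563 in vehicle, a mean above that of *Srsf1*. The 2 genes overlapped, with *Srsf9* at 1007 and *Srsf1* at 1054 in vehicle replicate 1. Per kb of the canonical transcript *Srsf5* stood at 2035 ± 91.6 in vehicle, above *Srsf11* (1550 ± 55.0), *Srsf6* (1138 ± 16.2) and *Srsf1* (1051 ± 32.9), and the share of *Srsf1* was 5.80% ± 0.588 there and that of *Srsf6* 6.28% ± 0.484. By the mean length over transcripts, *Srsf1* (1365 ± 243) was not below *Srsf10* (1354 ± 148) with melatonin. By that length *Srsf2* was below *Srsf3* in melatonin replicate 3 (3841 and 4190), so these 2 genes overlapped.

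**Figure D4:**
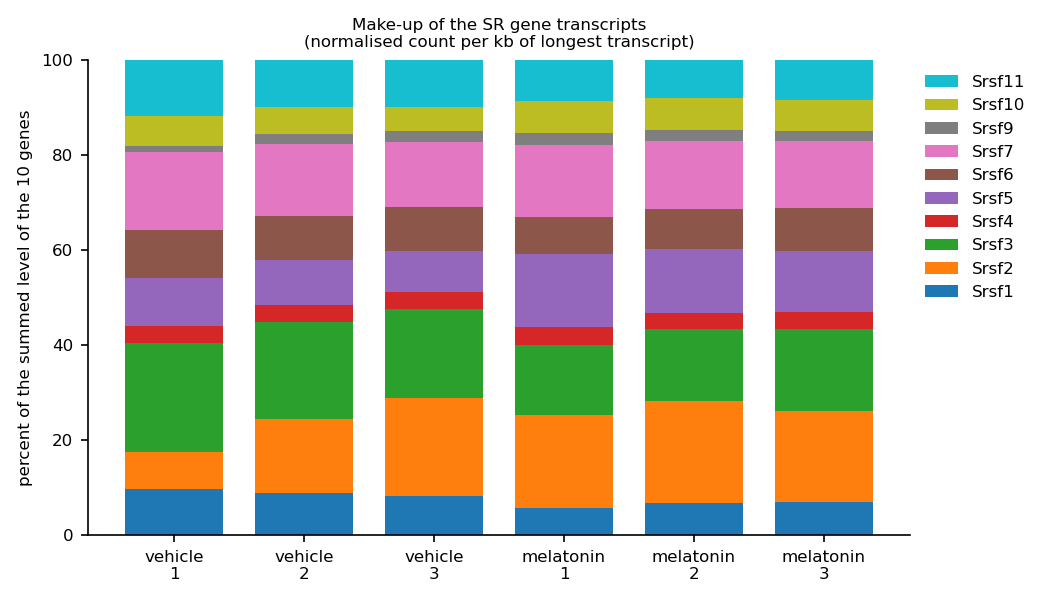
Share of each SR gene (percent, stacked to 100) in the summed normalised count per kb of longest transcript, for each library. The *Srsf5* band is wider in the 3 melatonin libraries (13.0% to 15.4%) than in the 3 vehicle libraries (8.61% to 9.95%), and the *Srsf2* band is narrow in vehicle replicate 1 (7.71%).

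The counts are per gene and do not separate the forms of a transcript. GENCODE M39 lists 397 transcripts for the 10 genes, and 226 of them (56.9%) are labelled as targets of nonsense-mediated decay, from 3 in *Srsf1* to 55 in *Srsf5*. Whether the *Srsf5* counts came from coding or from poison-exon forms was not measured here. The library kit does not mark strand, so reads on exons shared with an antisense neighbour cannot be told apart. *Srsf2* shares 1817 exon bases with *Mfsd11*, which had 302 to 341 normalised counts in vehicle and 529 to 754 with melatonin, and 2088 with *Mettl23*. *Srsf9* shares 4654 exon bases with *Gatc*, at 482 to 537 normalised counts in vehicle and 482 to 535 with melatonin. In vehicle replicates 1, 2 and 3, *Mfsd11* had 321, 302 and 341 normalised counts and *Mettl23* had 378, 419 and 377. *Gatc* had 536, 537 and 482 in the same order. The part of reads from these neighbours in the SR values was not tested. Among the called genes, *Srsf5* shares 1345 exon bases with Gm20337 and 268 with *Slc10a1*, *Srsf1* shares 730 with Gm11508, *Srsf3* shares 257 with *Trp53cor1* and *Srsf11* shares 17 with *Lrrc40*. *Srsf4* shares 3506 with Gm12992 and 371 with Gm12978, and *Srsf10* shares 192 with Gm57106 and 53 with Gm69173. *Srsf6* and *Srsf7* share no exon bases with another gene. *Srsf12*, a rare relative, had 1.87 to 8.74 normalised counts and was not tested.

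The genes whose log2 level over the 6 libraries was most like the mean log2 level of the SR genes, over 9980 genes averaging 100 or more normalised counts, were *Pim1* (Pearson's r = 0.991), a survival kinase, *Carnmt1* (0.975) and *Tfdp1* (0.973), an E2F partner. None of these 3 was called, and the likeness describes 6 points that share their library. The mean of the SR genes was lowest in vehicle replicate 1, at 11.92 beside 12.15 and 12.16 in vehicle replicates 2 and 3. That is the library where *Srsf2* and *Srsf9* were low, so the likeness rests in part on these 2 genes.

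Among the kinases that act on SR proteins, calls went in both directions. *Srpk2* had 297 ± 14.1 normalised counts in vehicle and 665 ± 133 with melatonin (SD, n = 3; log2 fold change 1.14, limma adjusted p = 0.000426), and *Srpk1*, the more abundant SRPK, fell (log2 fold change −0.31, adjusted p = 0.0111). *Clk1* rose from 1239 ± 55.6 to 1832 ± 171 (log2 fold change 0.56, adjusted p = 0.00134) and *Clk3* from 2428 ± 152 to 3166 ± 293 (0.38, adjusted p = 0.00854). *Clk2* (0.18, adjusted p = 0.136) and *Clk4* (0.09, adjusted p = 0.457) did not pass. *Srpk3* was not analysed here. Of the 14 kinases, phosphatases and import factors tested, 3 were called higher and 3 lower, with a median log2 fold change of 0.15. The counts of this and the following lists stand beside 24.5% of all genes tested called higher and 24.7% lower. No list was tested as a set. *Ppp1r8*, a nuclear inhibitor of protein phosphatase 1, fell (−0.52, adjusted p = 0.00303).

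Of 23 other RS-domain proteins tested, 3 were called higher and 7 lower, with a median of −0.17. *Tra2a*, a splicing activator related to the SR family, fell from 892 ± 35.4 to 381 ± 57.4 normalised counts (log2 fold change −1.24, limma adjusted p = 0.000131), while its paralog *Tra2b* was at 4183 ± 183 and 3583 ± 410 (−0.23, adjusted p = 0.0761). *U2af2*, the large subunit of U2AF, fell (−1.16, adjusted p = 0.000265). *Rsrc2* (0.37, adjusted p = 0.00718) and *Pnisr* (0.40, adjusted p = 0.0270) rose.

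The hnRNP proteins, which often oppose SR proteins at exons, were mostly lower. Of 25 tested, 15 were called lower and 1 higher, with a median log2 fold change of −0.39. *Hnrnpa3* fell from 1269 ± 134 to 490 ± 134 normalised counts (−1.40, limma adjusted p = 0.000393), *Hnrnpa0* fell by 1.40 on the log2 scale (adjusted p = 0.000615), and *Hnrnpr* rose (0.23, adjusted p = 0.0276). The list of core snRNP proteins also holds other spliceosome proteins, *Cdc5l* and *Prpf19* among them. Of its 36 genes, 20 were called lower and 2 higher (median −0.34). Among them *Snrpn* (−1.61, adjusted p = 0.00102) and *Snrpf* (−1.21, adjusted p = 0.000152) were lower. *Snrnp35* (0.78, adjusted p = 0.00284) and *Cdc5l* (0.44, adjusted p = 0.00874) were higher. These lists are described by counts beside the 24.5% and 24.7% of all genes given above, with no test of the list.

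Of the 15 genes for nonsense-mediated decay and the exon junction complex, 2 were called higher and 6 lower (median −0.26). *Eif4a3* (log2 fold change −0.67, limma adjusted p = 0.000241) and *Magoh* (−0.84, adjusted p = 0.00205), both core subunits of that complex, fell, and *Upf3a* (0.31, adjusted p = 0.0244) and *Casc3* (0.25, adjusted p = 0.0368) rose. Of 11 mRNA export genes, 1 was called higher and 5 lower (median −0.16). *Nxf1*, the export receptor with which SRSF3 and SRSF7 work, rose from 2928 ± 46.1 to 5043 ± 559 normalised counts (0.78, adjusted p = 0.000302). The helicase gene *Ddx39a* fell from 10846 ± 320 to 4132 ± 269 (−1.39, adjusted p = 1.41e-05), and *Thoc6* of the THO complex fell (−0.57, adjusted p = 0.00120).

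Of 18 other splicing regulators, 3 were called higher and 7 lower (median −0.06), with *Tia1* (log2 fold change 0.41, limma adjusted p = 0.00490) and *Rbm5* (0.31, adjusted p = 0.0342) higher and *Tial1* (−0.62, adjusted p = 0.00608) lower. Among 5 long noncoding RNAs (*Malat1*, *Neat1*, *Kcnq1ot1*, *Gas5* and *Snhg1*), 2 were called higher and 2 lower. *Malat1*, the long noncoding RNA of nuclear speckles, where SR proteins are stored, rose from 5285 ± 963 to 24315 ± 3613 normalised counts (2.21, adjusted p = 3.08e-05). *Neat1*, the scaffold of paraspeckles, rose from 1396 ± 61.7 to 6288 ± 747 (2.16, adjusted p = 4.37e-06). Of 13 mitochondrial mRNAs, 10 were called lower and none higher (12 at an unadjusted p under 0.05, median −1.18). Their summed level ranged from 78705 to 112532 in vehicle and from 41340 to 64645 with melatonin, and its part in the SR values was not tested.

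**Figure D5:**
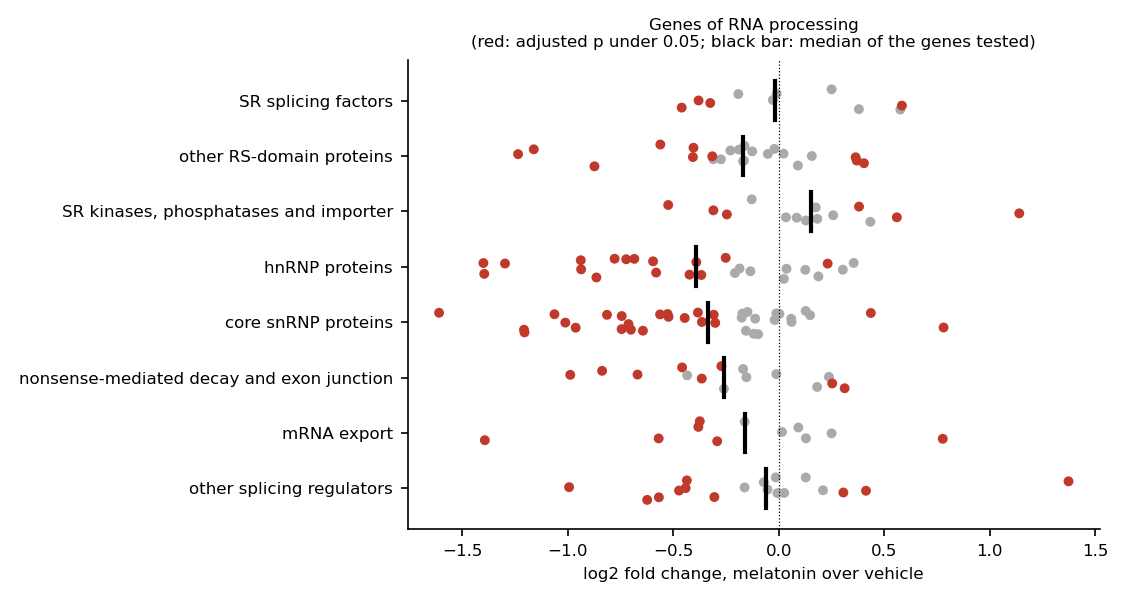
Log2 fold change of each gene tested in 8 lists of RNA processing genes, red where the limma adjusted p was under 0.05, with the median of each list as a black bar. The SR genes lie between −0.46 and 0.58 around a median of −0.02, and the hnRNP and core snRNP lists have medians of −0.39 and −0.34.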

How the data were processed

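RNA of aILC2s was sequenced on an Illumina instrument after SMARTer Ultra Low Input cDNA synthesis. Trimming and quantification by the authors were done in Partek Flow, with STAR alignment to mm39, the E/M algorithm for Gencode M33 genes, removal of low genes and division by DESeq2 median ratio size factors. The signal deposited by the authors is thus an estimated count after normalization. At a tolerance of 0.01 of a read, 64.8% of all values were whole multiples of the value of 1 read, so whole reads were not recovered and a count model was not used. The methods and the labels give different RNA inputs.

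Groups were compared with limma 3.58.1 under R 4.3.3, using lmFit and a trended eBayes, on log2(value + 1), so that fold changes are on that scale, with treatment as the only term, over the 14419 genes with at least 10 in at least 1 sample, Benjamini-Hochberg adjusted at 0.05. For members, the two-sided exact permutation test bottoms out at p = 0.1 with 3 samples per group, the value of those whose groups did not overlap. Names, positions, transcript lengths and GC content came from GENCODE M39 on GRCm39, the assembly of mm39, which named 16334 of the 16381 genes. Tables and figures used Python 3.11.15, pandas 2.3.3, numpy 2.4.6, scipy 1.17.1, biopython 1.88 and matplotlib 3.10.9. The script was tested on simulated data.

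The members and gene lists were chosen with earlier results of these data known. Named genes are all members, the 2 largest called rises and falls with a mean of at least 100 in each other splicing list, the CLK and SRPK kinases, *Tra2a* and *Tra2b*, and the 3 genes most correlated with the members. The values of 1 gene that this rule names are not reported here. *Srsf12*, Srsf3-ps, the antisense neighbours, the marker genes other than *Ptprc* and *Gata3*, and the long noncoding RNAs were named after their values were seen. Alternatives were pseudocounts of 0.1 and 10, other filters and scalings, limma without the trend, with sample weights or with voom, a replicate block, length and GC corrections (lowess span 0.3), stricter thresholds and each library left out. Canonical transcript lengths, the sum of *Srsf3* and its pseudogene, and a fit of only the libraries with Y-linked transcripts were added after seeing the data.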

Additional observations from a re-analysis of the deposited data

How the results depend on the processing

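*Srsf5* and *Srsf11* kept their calls in every alternative except a log2 fold change of at least 1, which left 0 SR genes called. *Srsf1* and *Srsf3* lost theirs under quantile normalization (adjusted p = 0.0579 and 0.124), without the trend (0.0551 and 0.0622) and at a threshold of 0.01, each of which left 1 SR gene called lower. After correction for GC content the log2 fold change of *Srsf5* was 0.45, its lowest in any alternative. The same correction gave −0.59 for *Srsf1*, −0.51 for *Srsf3* and −0.43 for *Srsf11*, each further from 0 than in the main fit. The number called higher was 2 with only genes of a mean of at least 100, scaling to the same total, quantile normalization or sample weights, through *Srsf10*. Leaving out 1 library gave 1 to 2 called higher and 1 to 3 called lower. The libraries that changed a call were vehicle replicates 1 (*Srsf3*), 2 (*Srsf1*, *Srsf3*) and 3 (*Srsf2*) and melatonin replicate 1 (*Srsf10*). The cause was not tested. *Srsf4* turned sign with scaling to the same total (0.0284) and sample weights (0.0144), and ranged from −0.0485 to 0.0328 with 1 library left out. *Srsf7* turned sign with the same scaling (0.0103), quantile normalization (0.0863) and sample weights (0.0127), and ranged from −0.0936 to 0.0167 with 1 library left out. The other 8 genes kept their sign in every fit. With the replicate block, 1 gene was called higher and 3 lower, the same 4 genes. Same-numbered samples did not deviate together (r = −0.0540, 0.00644 and −0.0483), so the numbers were not taken as pairs. The fit of the 4 libraries with Y-linked transcripts holds 1 melatonin library with no spread of its own, and melatonin libraries varied more than vehicle ones for *Srsf1*, *Srsf3* and *Srsf6*, so no call is read from it. The spread was about as small as counting error for *Srsf6* in vehicle and *Srsf4* with melatonin.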
